A study of Mus musculus with 2 samples.

Results

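The genes described are 80 mouse genes for splicing factors and other proteins that handle RNA, of 5928 genes named on the array. They were taken by symbol alone. A gene was a member when its symbol began with Sf3, Srsf, Snrp, Hnrn, Ddx, Dhx, Prpf, Lsm, Cpsf, Cstf, Celf, Khdrbs, Rbpms, Cnot or Exosc, or with Rbm or Nup and a digit. These 80 genes were read by 121 of the 7717 probe sets with a single annotated gene. The name splicing factors covers only some of them, since the symbols also take in helicases of ribosome assembly, subunits that shorten or degrade mRNA, and 8 proteins of the nuclear pore, most of which do not bind RNA themselves. Another 3 probe sets that matched by symbol were annotated to several genes and were left out.

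The study set a pair of mouse mesoangioblast clones, D16 and D351, against each other on 1 array each, the C array of the murine U74 set. Below, "on D16" and "on D351" stand for the array of that clone, and a pair of values gives D16 first. Mesoangioblasts are progenitor cells of the vessel wall that can form mesodermal tissues. Both clones came from explants of the dorsal aorta of C57BL6 embryos at embryonic day 9.5. They were cloned by limiting dilution on embryonic fibroblasts whose growth had been stopped with Mitomycin C, and were then grown on gelatin. Neither clone had a treatment of its own, and each group is a single clone, so a difference between them may be one between any 2 clones. Because each clone had only 1 array, no difference has a replicate check and no test was possible. The number of arrays sets the limit of precision. In such bulk RNA, fewer cells that express a gene and less RNA per cell cannot be told apart.

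A new transcript is bound by hnRNP and SR proteins, which steer where it is cut. The spliceosome then forms on it from small nuclear ribonucleoproteins (snRNPs). The U1 and U2 snRNPs mark the ends of an intron, the tri-snRNP joins them, and helicases of the DEAD and DEAH types rearrange the complex at each step. The finished message is cleaved and polyadenylated, leaves through the nuclear pore, and is later shortened by the CCR4-NOT complex and degraded from its end by the exosome. Members such as the CELF and KHDRBS proteins adjust splicing and mRNA stability in particular tissues, muscle and nerve among them.

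Values are linear intensities in arbitrary units, as deposited. The floor was 6.4, the median of all values outside the manufacturer's controls, and a value at or below it is called dim. A probe set above the floor in at least 1 clone is called measured. Ratios are log2 of D351 over D16 with dim values raised to the floor, so that a gene dim in 1 clone has only a lower bound. A gene stands for its brightest probe set, and 2-fold is the size used to count differences. As context for all of these values, the 9 hybridization control probe sets were a median of 1.59-fold brighter on the D16 array, and 38 values of negative control probe sets reached at most 11.2. The control ratio of the downstream to the upstream end of the transcript was 1.39 on D16 against 1.22 on D351 for Gapdh. Of the 9 marker genes listed for mesoangioblasts and endothelium, 2 were named on the array: Flt1 was dim on D16 but read 87.6 on D351, and Kdr was dim on D16 but read 9.5 on D351, within the range of the negative controls. The 4 embryonic fibroblast markers on the array, the cell type of the feeder layer, were 3.19-fold to 6.14-fold higher in D351. The part of feeder cells in the values below was not tested.

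Of the 65 measured members, 42 read above the floor in both clones and less than 2-fold apart, and 9 dim in 1 clone had a bound under 2-fold that does not place them. The RNA-binding protein gene Khdrbs3 was dim in D16 and bright in D351. The genes Prpf4, of the tri-snRNP, and Nup62, of the nuclear pore, were over 2-fold higher in D16 by each of their measured probe sets. The 65 are 81.3% of the 80 members, beside 66.4% of all named genes measured, and 15 were dim in both clones. At least 2-fold higher were 4 members in D351 and 10 in D16, together 21.5% of the 65. Over all 3934 measured genes, 10.3% were at least 2-fold higher in D351, 10.2% in D16 and 20.5% in either direction, so the members' total share lay near the background. The median log2 ratio of the members was -0.13 and that of all measured genes -0.022. The middle 50% of members lay between -0.59 and 0.48, and of all measured genes between -0.47 and 0.47.

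**Figure D1:**
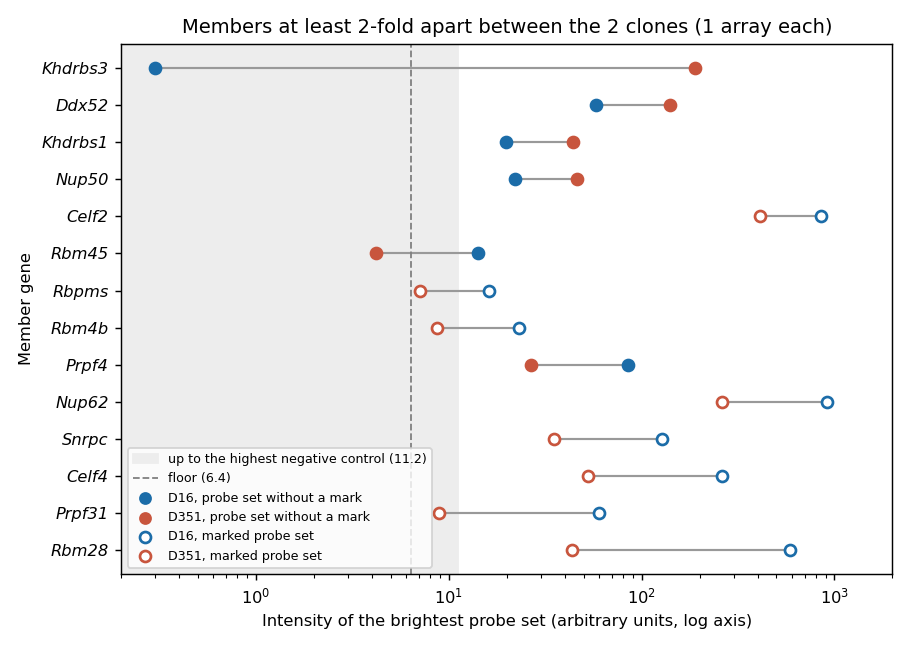
Intensity on the D16 array (blue) and the D351 array (red) of the 14 members at least 2-fold apart, on a log axis, 1 point for each array, with open points for marked probe sets. The 4 members higher in D351 are at the top, Khdrbs3 has the widest gap, and 5 members have a lower value inside the grey range of the negative controls.

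The scale of the arrays bears on the direction of these counts. Scaled to the hybridization controls, the median of all measured genes moved to 0.59 and that of the members to 0.53. The count of members at least 2-fold higher then became 21 in D351 and 7 in D16, of 67 measured, beside 1192 and 170 of 4226 genes. No member at least 2-fold apart changed its direction under that scaling, although Celf2, Rbm4b and Rbpms no longer reached 2-fold. Of the 8 steps of RNA processing with a median below 0 as deposited, 6 had one above 0 under it: RBM (0.35), nuclear pore (0.32), hnRNP (0.60), cleavage (0.12), decay (0.63) and the CELF, KHDRBS and RBPMS genes (0.29). The PRPF and U snRNP genes stayed below 0, the latter at -0.055. All directions below are those of the intensities as deposited.

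The kind of probe set also moved with the direction. Letters in an identifier mark probe sets whose probes were chosen under relaxed rules or fewer in number (r and i), or match several related transcripts (f and s). Of the 121 member probe sets 59 (48.8%) carried such a mark, beside 36.9% of all probe sets. Of the 39 measured marked member probe sets, 10 passed 2-fold towards D16 and 0 towards D351. Of the 49 without a mark, 3 were higher in D16 and 5 in D351. Over all probe sets the counts were 257 on D16 against 236 on D351 of 2493 measured with a mark, and 409 and 429 of 4335 without. In either direction, 25.6% of the measured marked member probe sets passed 2-fold, beside 19.8% of all marked ones. Without a mark the shares were 16.3% and 19.3%. All 4 members higher in D351 were read by probe sets without a mark, and 8 of the 10 higher in D16 by marked ones. With unmarked probe sets alone, 41 members were measured, of which 4 lay past 2-fold towards D351 and 2 towards D16, 14.6% beside 20.6% of 2524 genes. The part of the marks in the counts of each direction was not tested.

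Because single probe sets can mislead, genes with more than 1 were compared within themselves. Of the 16 members with several measured probe sets, 8 had readings on both sides of 0, and in 6 another probe set differed from the brightest by over 1 log2. These counts were not made over all genes, for which only the pairs given below were compared. Of the 5 among the 16 whose brightest probe set passed 2-fold, Nup62 and Prpf4 passed it by every measured probe set. In Rbm28, Prpf31 and Snrpc the other probe sets stayed under 2-fold. The 13 members with 2 probe sets above the floor in both clones had an SD within the pair of 0.96 log2 per probe set. Over 409 such genes it was 0.67. The median absolute difference within a pair was close, 0.55 log2 for the members beside 0.54. Both ratios of a pair had the same sign in 8 of the 13 members and in 244 of the 409 genes.

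**Figure D2:**
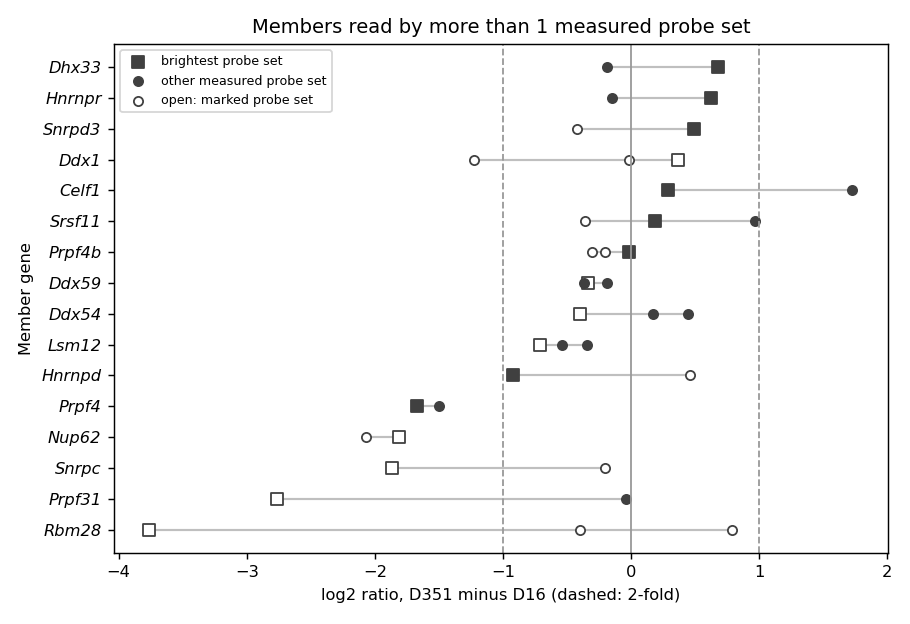
Log2 ratio (D351 minus D16) of every measured probe set of the 16 members that had more than 1, with squares for the brightest and open symbols for marked probe sets. The symbols of Prpf4 and Nup62 lie beyond the dashed 2-fold line, while those of Rbm28 run from -3.76 to 0.79.

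Promoters are shown for the 3 members that passed 2-fold by an unmarked probe set, read above 11.2 in both clones and had an entry in the promoter table. Ddx52 and Nup50 were higher in D351 and Prpf4 in D16. Each sequence is the 250 bases before the annotated start, from RefSeq on GRCm38.p6, written in the direction of the gene. Capitals mark any match on either strand to 5 short motifs. These were TATAAA of the TATA box, CCAAT of the box with that name, GGGCGG of the GC box, CGGAAG from the core of ETS factor sites, and CACGTG of the E-box. No matches overlapped here.
Ddx52, chr11:83941840-83942089, plus strand: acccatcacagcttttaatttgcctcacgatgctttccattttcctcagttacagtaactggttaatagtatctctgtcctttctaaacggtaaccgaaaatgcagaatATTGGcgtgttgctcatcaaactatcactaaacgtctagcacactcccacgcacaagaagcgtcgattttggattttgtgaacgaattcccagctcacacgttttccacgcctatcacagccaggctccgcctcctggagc
Nup50, chr15:84923178-84923427, plus strand: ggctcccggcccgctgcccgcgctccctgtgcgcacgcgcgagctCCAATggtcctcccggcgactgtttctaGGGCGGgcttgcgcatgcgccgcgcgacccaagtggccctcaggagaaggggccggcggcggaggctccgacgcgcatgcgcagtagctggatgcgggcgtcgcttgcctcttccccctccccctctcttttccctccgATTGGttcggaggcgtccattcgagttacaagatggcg
Prpf4, chr4:62408533-62408782, plus strand: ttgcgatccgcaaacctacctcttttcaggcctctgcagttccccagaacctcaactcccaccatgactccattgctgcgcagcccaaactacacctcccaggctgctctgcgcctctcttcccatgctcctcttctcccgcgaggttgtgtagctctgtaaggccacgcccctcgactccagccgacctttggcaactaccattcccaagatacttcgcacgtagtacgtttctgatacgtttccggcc
The Ddx52 window held 1 match, a reversed CCAAT box that begins 141 bases before the start. The Nup50 window held 3, a CCAAT box at 205, a GC box at 177 and a reversed CCAAT box at 38 bases before the start. The Prpf4 window held none of these letters.

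The promoter table held 86 promoters of 67 members. GGGCGG occurred in 58.1% of them, beside 53.5% of the 3925 promoters of measured genes and 32.7% of all 32851 promoters of the table. CGGAAG occurred in 36.0%, beside 22.6% and 13.6%. CCAAT occurred in 33.7%, beside 33.5% and 33.8%. TATAAA was found in 5.81%, beside 6.55% and 12.4%, and CACGTG in 8.14%, beside 6.45% and 6.02%. Of the 14 members past 2-fold, 10 had an entry, some with several promoters. Among the 14 promoters of these 10 genes, 6 held GGGCGG, 5 CCAAT, 2 CGGAAG, 1 TATAAA and 0 CACGTG. Such matches describe the letters and not the binding of a factor.

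Of the 6 U snRNP, Sm and LSm genes on the array, 1 passed 2-fold, 16.7% beside 20.5% of all measured genes. Snrpc, a protein of the U1 snRNP, read 127.6 on D16 against 35.0 on D351 by its brightest probe set, a 3.65-fold difference. Its other probe set read 53.9 and 46.7, nearly level, and both carry the r mark. Lsm12, an LSm domain protein, read 2116 on D16 against 1294 on D351, 1.64-fold higher in D16. Its other 2 probe sets, without a mark, lay the same way at log2 ratios of -0.34 and -0.54. Lsm11, of the U7 snRNP that trims histone messages, read 58.9 and 35.1. The Sm ring protein gene Snrpd3 read 49.8 on D16 against 69.9 on D351 by its brightest probe set and the other way, 12.7 and 9.5, by another. Snrpe was dim on D16 but read 9.0 on D351, and Snrpb2, of the U2 snRNP, read 8.8 on D16 but was dim on D351, both within the range of the negative controls. The 6 genes had a median log2 ratio of -0.58.

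The U2-bound SF3 complex had a single member on the array. Sf3b2, an SF3b subunit at the branch point, read 7.9 on D16 against 11.0 on D351, both within the negative controls.

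Of the 3 measured PRPF genes, 2 passed 2-fold, both towards D16, 66.7% beside 20.5% of all measured genes in either direction. Prpf4, a tri-snRNP protein, read 85.5 on D16 against 26.8 on D351 by a probe set without a mark, 3.19-fold higher in D16. A second unmarked probe set read 27.2 and 9.6, a log2 ratio of -1.50 beside -1.67, but the 9.6 is no brighter than some negative controls. A floor of 20.7 leaves this second probe set a bound of at least 1.31-fold. Prpf31, another tri-snRNP protein, read 60.4 on D16 against 8.9 on D351 by a marked probe set, a 6.79-fold difference, but an unmarked one read 11.9 and 11.6. With the floor at 20.7, the 75th percentile, the marked probe set was at least 2.92-fold higher in D16. The kinase gene Prpf4b was level at 198.5 and 196.4, and its other 2 probe sets had log2 ratios of -0.20 and -0.31. Prpf8, at the catalytic centre, was dim in both clones. The median of the 3 measured genes was -1.67, which became -0.037 with unmarked probe sets alone.

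Neither of the 2 measured helicases of splicing passed 2-fold, beside 20.5% of all measured genes that did. Dhx40 read 145.7 on D16 against 278.4 on D351, 1.91-fold higher in D351 and among the members just under the 2-fold line. Ddx23, the helicase that helps to bring the tri-snRNP into the active spliceosome, read 30.7 and 41.8. Ddx17 was dim in both clones.

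SR and hnRNP genes, which bind exons and introns along the transcript, had no member past 2-fold, beside 20.5% of all measured genes. Of 4 SR genes, Srsf11 read 21.7 on D16 against 24.7 on D351 and Srsf6 read 11.3 and 11.8. Other probe sets of Srsf11 lay at -0.36 and 0.97 log2, the latter a lower bound from a probe set dim on D16. Srsf1 and Srsf3 were dim in both clones by every probe set. Of 5 hnRNP genes, Hnrnpm, a splicing regulator, read 426.5 on D16 against 283.2 on D351, 1.51-fold higher in D16. Its only probe set has the f mark. Hnrnpd (AUF1), which binds AU-rich elements of unstable messages, read 17.8 and 9.4, but its marked probe set was dim on D16 but read 8.8 on D351. Hnrnpab was level at 17.1 and 16.3. Hnrnpr read 10.2 and 15.7 by 1 probe set, while another read 7.1 on D16 but was dim on D351. Hnrnpll was dim on D16 but read 6.6 on D351, just above the floor.

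RBM proteins carry RNA recognition motifs but do unlike things, and 3 of the 10 measured lay 2-fold or more towards D16. Over all measured genes, 10.2% lay that far towards D16 and 20.5% in either direction. Rbm28, a nucleolar protein tied to ribosome assembly and spliceosomal snRNPs, had the largest ratio of the step, but its probe sets disagreed. Its brightest probe set read 590.1 on D16 against 43.5 on D351, a 13.6-fold difference. A second read 162.5 and 123.4, and the remaining one 64.6 and 111.6, higher in D351. All 3 carry the r mark, and averaged they gave a log2 ratio of -1.12.

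Rbm4b, a splicing regulator with a close copy in Rbm4 that its probes may also read, stood at 23.2 on D16 against 8.7 on D351. Rbm45 read 14.2 on D16 but was dim on D351, at least 2.22-fold higher in D16. With the floor at 20.7 Rbm4b was at least 1.12-fold higher and Rbm45 was dim in both. Rbm42 lay just under the line at 15.5 and 7.8. Rbm8a, a core protein of the exon junction complex, was nearly level at 98.6 and 108.0 by a probe set with the f mark. Its unmarked probe set was dim in both clones. The splicing regulator Rbm39 (11.2 and 18.8) and Rbm26 (25.5 and 39.9) read higher on D351 and Rbm5 (20.1 and 13.9) on D16, all under 2-fold. Rbm25 was 1.31-fold higher in D351 and Rbm33 1.22-fold higher in D16. Rbm12, Rbm12b1, Rbm22, Rbm44 and Rbm47 were dim in both clones. The median of the step was -0.41.

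Of the CELF, KHDRBS and RBPMS genes, 5 of 6 lay past 2-fold, 2 towards D351 and 3 towards D16. This is 83.3% of the 6, beside 20.5% of all measured genes. The 3 towards D16 were measured only by marked probe sets. Khdrbs3, a STAR family protein with a KH domain that regulates alternative splicing, read 0.3 on D16 against 189.6 on D351 by an unmarked probe set. It was at least 29.6-fold higher in D351, or 9.16-fold at the least with a floor of 20.7. No other probe set read this gene. Khdrbs1 (Sam68), its broadly expressed relative, lay the same way at 19.8 and 44.0, 2.22-fold higher in D351, and at 0.94 log2, under 2-fold, with a pseudocount of 6.4. Its other probe set was at 0.2 in both clones.

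The CELF genes, regulators of splicing and mRNA decay known from heart, muscle and brain, did not share a direction. Celf4, best known from neurons, read 262.4 on D16 against 52.9 on D351, 4.96-fold higher in D16. Its only probe set has the f mark and may read related transcripts, and none of the 6 listed neuron markers was named on the array. Celf2 read 850.5 and 411.3, 2.07-fold higher in D16, by 1 probe set with the r mark. It lay under 2-fold with quantile normalization (-0.91 log2), lowess centring (-0.93) and scaling to the hybridization controls (-0.38). Celf1 read 39.7 and 48.5 by its brightest probe set, while another was dim on D16 but read 21.2 on D351. Averaged over both, Celf1 had a log2 ratio of 1.01.

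Rbpms, an RNA-binding protein of smooth muscle and heart, read 16.2 on D16 against 7.1 on D351 by a probe set with the r mark, 2.28-fold higher in D16. With the floor at 20.7 it was dim in both. The 3 smooth muscle markers on the array lay the other way, with Acta2 dim on D16 and at 15.4 on D351, Synpo2 at 24.7 and 105.2, and Lmod1 dim on D16 and at 288.2 on D351. The median log2 ratio of the 6 genes was -0.38, with 3 on each side of 0. With the floor at 20.7, which left 5 genes measured, the median was 0.29. Unmarked probe sets alone left only Celf1, Khdrbs1 and Khdrbs3, 3 genes with a median of 1.15. The 3 genes towards D16 had dropped out of that median.

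**Figure D3:**
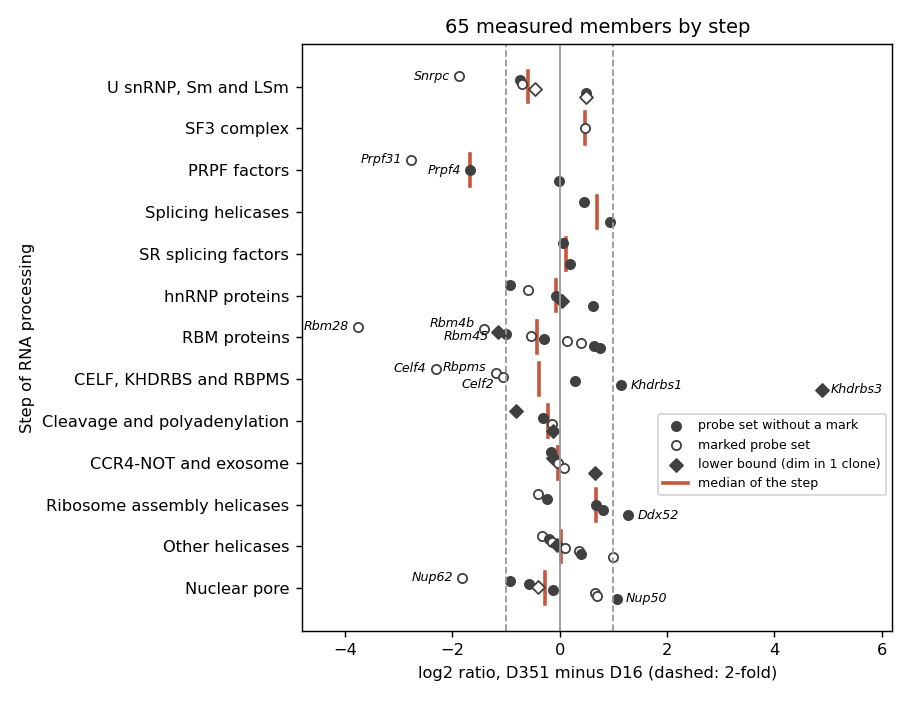
Log2 ratio (D351 minus D16) of the brightest probe set of each of the 65 measured members, in rows by step of RNA processing, with the median of each step in red, 2-fold as dashed lines, open symbols for marked probe sets and diamonds for lower bounds. The 14 named genes lie beyond 2-fold, and 5 of them belong to the CELF, KHDRBS and RBPMS row.

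No gene for the end of the message or for its decay passed 2-fold, but 4 of 9 were dim in 1 clone and have only bounds. Over all measured genes 20.5% passed it. The cleavage genes lay near background: Cstf2 read 11.1 on D16 against 10.1 on D351, its paralog Cstf2t 12.1 and 9.8, and Cpsf3, the endonuclease that makes the cut, 11.2 on D16 and dim on D351. Cpsf4l read 7.0 on D16 but was dim on D351. Of the decay genes, Exosc10, a catalytic exonuclease of the nuclear exosome, read 147.0 and 132.0. Cnot6l, a deadenylase of CCR4-NOT, read 41.0 and 39.9, and Cnot6 11.8 and 12.5, both by probe sets with the r mark. The scaffold gene Cnot1 was dim on D16 but read 10.1 on D351, and Cnot2 read 7.0 on D16 but was dim on D351. Cnot4 and Exosc1 were dim in both clones. Of these 9 measured genes, 2 lay above 0 and 7 below. With the floor at the 25th percentile the median of the cleavage genes was -0.61 in place of -0.22.

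Of 5 measured helicases of ribosome assembly, 1 passed 2-fold (20.0%, beside 20.5% of all genes), 3 lay above 0 and 2 below. The median was 0.68, and 0.24 with the mean over the probe sets of each gene. Ddx52 read 58.0 on D16 against 141.0 on D351, 2.43-fold higher, by an unmarked probe set. Dhx37 (14.8 and 25.9) and Dhx33 (18.9 and 30.2) lay the same way under 2-fold, although another probe set of Dhx33 read 16.1 and 14.1. Ddx54, a nucleolar helicase, read 729.6 on D16 against 552.9 on D351 by a probe set with the f mark. Its unmarked probe sets lay the other way at 0.17 log2 and at a bound of 0.44, or were dim in both clones. The bound came from a probe set dim on D16 that read 8.7 on D351, within the range of the negative controls. Ddx31 read 20.6 and 17.4, and Ddx10 and Ddx51 were dim in both. With the floor at the 25th percentile, which brings in genes near background, the median of the step turned to -0.24.

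Of the remaining 10 helicases, 8 were measured and none passed 2-fold, beside 20.5% of all measured genes. Dhx30, which serves the mitochondrial ribosome, read 411.2 on D16 against 373.5 on D351 by a probe set with the i mark. Its unmarked probe set was dim in both clones. Dhx34, of nonsense-mediated decay, read 43.4 and 37.9. Ddx1 read 18.0 and 23.2 by its brightest probe set, but another read 15.0 on D16 but was dim on D351, a log2 ratio of -1.23. Dhx29, which aids scanning of structured messages in translation, read 13.6 and 17.9, and Ddx59 read 20.3 and 16.1.

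Helicases known from the germ line were also read. Ddx4 (Vasa) read 25.7 and 27.7 by a probe set with the i mark, and Ddx25, of developing sperm, read 9.4 and 18.7, which is 1.99-fold and just under the line. Ddx43 read 6.6 on D16 but was dim on D351. Of the other helicases, outside the germ line group, Ddx20 and Dhx36 were dim in both clones.

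The nuclear pore had 1 gene of 8 past 2-fold on each side, beside 20.5% of all measured genes in either direction. Nup62, of the central channel, read 919.7 on D16 against 261.7 on D351, 3.51-fold higher in D16, and 505.3 and 120.2 by its other probe set. Both carry the f mark. Nup50, a mobile nucleoporin that takes part in import, read 22.0 and 46.1, 2.10-fold higher in D351, and lay at 0.89 log2, under 2-fold, with a pseudocount of 6.4. Within the Y-shaped scaffold complex the values lay on both sides of 0, all under 2-fold: Nup107 read 91.3 on D16 against 147.9 on D351, Nup37 93.3 and 63.0, and Nup43 27.8 and 14.6. Nup54, a partner of Nup62 in the channel, read 33.9 and 53.6. Both Nup107 and Nup54 were read by a probe set with the i mark. Nup153, of the nuclear basket, was nearly level at 81.1 and 74.1, and Nup155 read 8.5 on D16 but was dim on D351. The median over the 8 genes was -0.27.

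Other genes of the same pathway were taken from a list. Of 245 such genes listed by their known roles, 86 were named on the array and 54 were measured. At least 2-fold higher were 3 in D351 and 7 in D16, 18.5% of the 54 beside 20.5% of all measured genes, with a median log2 ratio of 0. Towards D16 lay Luc7l of the U1 snRNP (292.8 and 114.5, with a second probe set at -0.93 log2). Seh1l of the pore scaffold (150.6 and 65.6) lay the same way by a probe set with the i mark. So did the decapping enzyme gene Dcp2 (24.0 and 6.8) and, by a probe set with the f mark, Smn1, of snRNP assembly (16.5 and 8.1). The D351 values of Dcp2 and Smn1 were within the range of the negative controls. Thoc7, of the THO export complex, read 33.8 on D16 but was dim on D351, at least 5.28-fold higher in D16. Pabpc1, the cytoplasmic poly(A)-binding protein, read 14.7 and was dim in D351. Snrnp48, of the minor spliceosome, read 234.6 and 95.9 by 1 probe set and 75.7 and 133.8 by another.

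Towards D351 lay Ago4, an Argonaute of small RNA silencing, at 19.7 on D16 against 76.2 on D351, 3.87-fold higher. Its second probe set was dim on D16 but read 39.4 on D351. Stau1, which binds double-stranded RNA in transported messages, read 92.0 and 278.6 by a probe set with the f mark. The RNA editing enzyme gene Adar read 12.1 and 25.9.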

How the data were processed

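The deposited table gave 1 linear intensity per probe set on each of 2 arrays, 1 for clone D16 and 1 for clone D351. How the authors made these intensities is not given in the sources used here. They were used unchanged. Of 11934 probe sets, 66 controls of the manufacturer were set aside. Gene names came from the platform annotation. The floor of 6.4, the 2-fold rule and the choice of the brightest probe set (highest mean floored log2 value) are as in the report. Named in the text were members past 2-fold, the 2 brightest measured members of each step, members with probe sets over 1 log2 apart and, outside the members, pathway genes past 2-fold. Other members are given to account for them. Members and lists were chosen with earlier results of these data known. Alternatives were quantile normalization, lowess centring (span 0.3), scaling to the hybridization controls, floors at the 25th (1.8) and 75th (20.7) percentile, a pseudocount of 6.4, a 3-fold rule, unmarked probe sets, and the mean over a gene's probe sets. The counting was tested on simulated data. Python 3.11.15, numpy 2.4.6, pandas 2.3.3, statsmodels 0.14.6 and matplotlib 3.10.9 were used.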

Additional observations from a re-analysis of the deposited data

How the results depend on the processing

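No paired analysis was possible because each clone had 1 array and no comparison had a test. The count of members at least 2-fold higher in D351, 4 as reported, was 21 with scaling to the hybridization controls, 8 with the floor at the 25th percentile, 2 with the pseudocount and 1 with the 3-fold rule. The count in D16, 10 as reported, was 17 with the floor at the 25th percentile, 2 with unmarked probe sets and 6 with the 3-fold rule. In both directions together the members' share, beside that of all genes, was 41.8% and 32.2% with the hybridization controls, 31.6% and 29.9% with the 25th percentile, 13.8% and 16.4% with the pseudocount, 14.6% and 20.6% with unmarked probe sets, and 10.8% and 8.13% with the 3-fold rule. Scaled to the hybridization controls, the median log2 ratio was 0.53 for the members and 0.65 for the other RNA processing genes. The median of the PRPF genes was -0.84 with the floor at the 25th percentile and -0.037 with unmarked probe sets, and that of the ribosome assembly helicases was -0.24 with the floor at the 25th percentile. Another 123 values stayed within the tolerance. It was 1.5 times for counts and the 95% binomial interval of the median for lists. For lists under 6 genes it was 0.67 log2, the SD between probe sets of a gene. For lists of 6 to 8 genes the interval spanned all their ratios, so a median could hardly leave it. The CELF, KHDRBS and RBPMS median of 1.15 with unmarked probe sets, over the 3 genes these left, lay within it. The shift by the hybridization controls was itself 0.67 log2, so the tolerance for the smallest lists says little about that scaling. Of 14 members past 2-fold, none changed direction under any setting that gave a value. Celf4, Ddx52, Khdrbs3, Nup62, Prpf4, Rbm28 and Snrpc passed 2-fold in each such setting. But Celf4, Nup62, Rbm28 and Snrpc had only marked probe sets, so the setting with unmarked ones gave them no value. With the mean over probe sets, Rbm28 (-1.12) and Snrpc (-1.04) passed although only the brightest probe set of each did. With the pseudocount Khdrbs1, Nup50, Rbm45, Rbm4b and Rbpms did not pass. With the floor at 20.7, 11 of the 14 passed, which is 29.7% of the 37 members then measured beside 16.2% of all genes. Signal over background limits the rest: 11 of the 65 measured members had no value above 11.2, the highest negative control.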
